A study of Mus musculus with 12 samples.

Results

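The LPS receptor complex and its adaptors are described here as 10 genes chosen by name for their textbook role: Tlr4, Cd14 and Ly96 at the cell surface, and Tirap, Myd88, Irak4, Irak1, Traf6, Ticam2 and Ticam1 inside the cell. The choice was made with earlier results of these data known. All 10 were found among the 55401 genes of the count table, and all 10 passed the filter on low counts, which 14079 genes passed. They were followed by RNA sequencing in Sp37A3, an immature dendritic cell (DC) line derived from the spleen of C57BL/6 mice and grown with GM-CSF and M-CSF. CtrV cells carried an empty lentiviral vector and are labelled as expressing Siglec-E, an inhibitory sialic acid-binding receptor. EKO cells are labelled as Siglec-E knockout and were made with a lentiviral CRISPR-Cas9 vector against Siglece, by pooling several clones that had been screened for low Siglec-E. Each label thus stands for a single line, and loss of Siglec-E cannot be told apart from other differences between the lines. Cells of either line were left unpulsed or were pulsed with ovalbumin (OVA), a model protein antigen, and all 4 groups were stimulated with LPS and taken 24 h later, with 3 libraries per group. There was no group without LPS, so the values are levels after LPS and no LPS response can be read from them.

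LPS, the lipid of the outer membrane of Gram-negative bacteria, is handed by CD14 to MD-2 (encoded by Ly96), and MD-2 sits on the outer part of TLR4 and brings pairs of receptors together. At the cell surface the sorting adaptor TIRAP recruits MyD88, which assembles the kinases IRAK4 and IRAK1 and the ubiquitin ligase TRAF6 and leads to NF-kB and inflammatory cytokines. After uptake of the receptor into endosomes, the bridging adaptor TRAM (Ticam2) recruits TRIF (Ticam1), which leads to IRF3 and type I interferon and is fed by CD14-dependent uptake. DCs use this receptor to mature, that is, to raise co-stimulatory molecules and cytokines.

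Library totals lay between 27116201 and 39698572 counts, and a level of 3 counts, used here as the detection limit, equalled 0.0785 to 0.110 CPM (counts scaled to the TMM-adjusted total over tested genes, in the usual CPM unit). The mRNA of the targeted gene was not lower in the EKO-labelled line: Siglece was at 150.2 to 163 CPM in the CtrV libraries and at 166 to 235 CPM in the EKO-labelled libraries. It was higher in every EKO-labelled library, by 0.31 ± 0.08 (SE) on the log2 scale with OVA and by 0.41 ± 0.08 without (edgeR, adjusted p = 0.011 and 0.0026). An edited transcript can still be made and counted, so mRNA does not check the loss of the protein, and the lines are called CtrV and EKO-labelled throughout. The study reports minimal or no Siglec-E expression for the clones that it pooled. Of the 8 DC markers listed, all were counted in every group, and their sum was 21533 to 23435 CPM in the CtrV line and 20408 to 22875 CPM in the EKO-labelled line. A single marker reached 633291 counts in a library, so the sum mostly follows that marker. By edgeR, 4 of the 8 were higher and 2 lower in the EKO-labelled line with OVA, beside 25.1% and 21.9% of all genes. Without OVA, 3 were higher and 2 lower, beside 24.5% and 21.9%. Flt3, a growth factor receptor of DCs, was low, with group means of 1.36 to 4.67 CPM. The 5 macrophage markers, Adgre1 and Fcgr1 among them, were counted too, and their summed level was 751 to 868 CPM in CtrV libraries against 1031 to 1114 CPM in the EKO-labelled ones. By edgeR, 3 of the 5 were higher and 0 lower with OVA, beside 25.1% and 21.9% of all genes. The same counts held without OVA, beside 24.5% and 21.9%. Summed markers of neutrophils stayed at or below 0.0990 CPM, with 4 of 5 at 0 counts within each group, and those of fibroblasts at or below 0.184 CPM. Summed T and NK cell markers reached 0.270 CPM in the CtrV line against 1.57 CPM in the other, and B cell markers 0.282 against 1.07 CPM. None of these 4 lists held a gene that passed the filter, and the part of these cell types in the differences below was not tested. No pair of replicates agreed within counting error (chi-square per degree of freedom of 4.58 to 41.8). The highest values belonged to pairs with replicate 1 of the EKO-labelled groups.

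The question put to the receptor and adaptor genes was whether LPS-stimulated cells of the EKO-labelled line carried the mRNAs of the LPS receptor at the level of CtrV cells. In OVA-pulsed cells, 8 of the 10 genes were higher and 2 were lower in the EKO-labelled line at an adjusted p under 0.05, where 47.0% of all tested genes passed, 25.1% higher and 21.9% lower. In unpulsed cells, 7 were higher, 2 were lower and Traf6 did not pass, against 46.4% of all genes, 24.5% higher and 21.9% lower. With a background this wide, a call alone says little about a gene, and the sizes carry more. Tlr4, Cd14, Ly96 and Ticam2 differed by at least 1 on the log2 scale in both conditions, 4 of 10 genes against 9.01% of all genes with OVA and 8.81% without. The median difference of the 10 genes was 0.74 with OVA and 0.81 without, and that of all tested genes was 0.00 in both, where the normalization places it near 0. Regardless of sign, the median size was 0.74 and 0.81 for the 10 genes against 0.21 in both conditions for all tested genes. In each condition the 3 EKO-labelled libraries did not overlap the 3 CtrV libraries for 9 of 10 genes, as for 52.9% of all genes with OVA and 47.1% without, and Traf6 was the gene that overlapped. The bulk libraries cannot separate a change in RNA per cell from a change in the share of cells that express a gene.

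**Figure D1:**
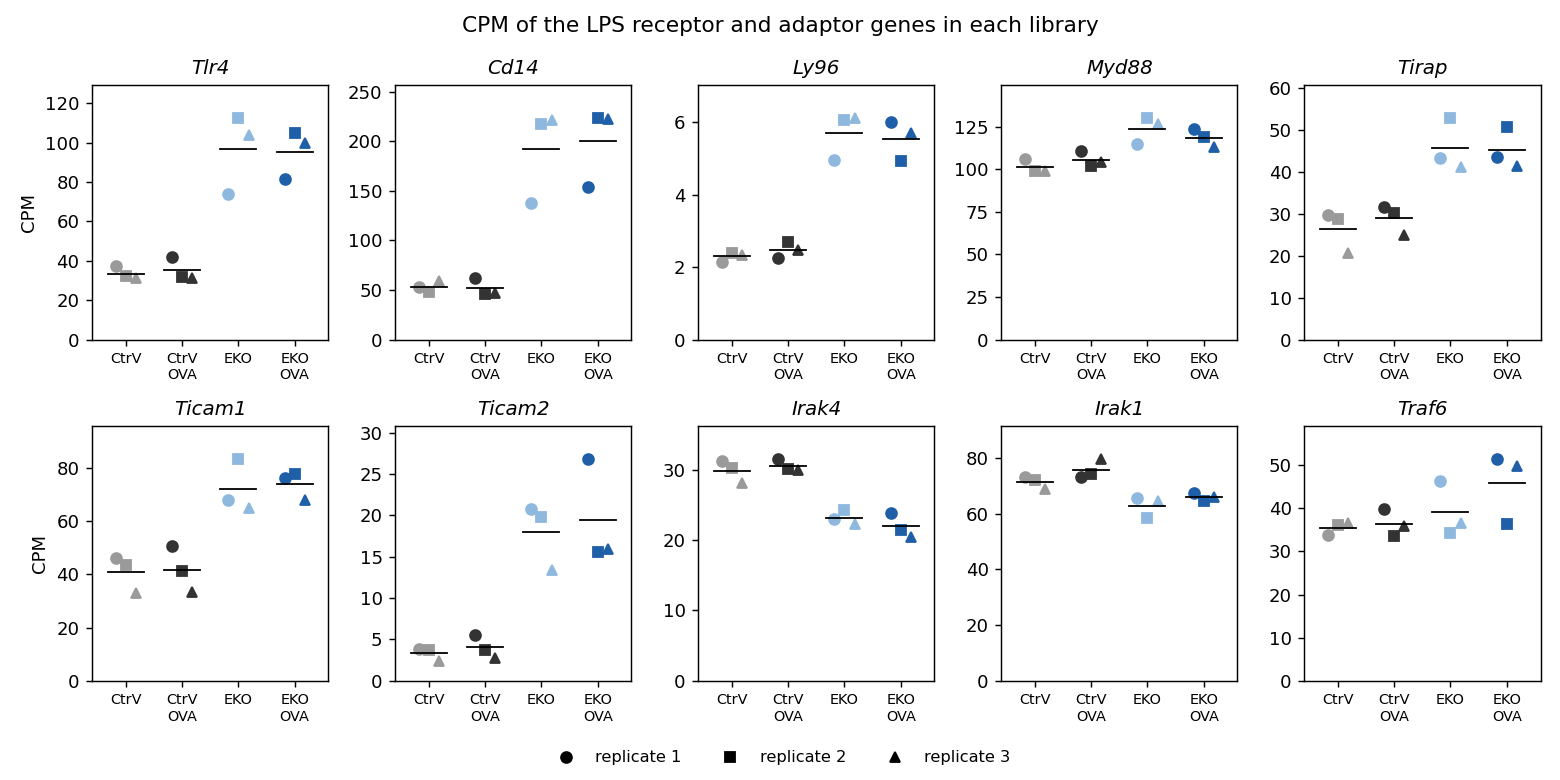
CPM of the 10 genes in each library (vertical axes from 0), by group on the horizontal axis, with a horizontal line at the mean of 3 libraries and a point shape for each replicate number. The EKO-labelled libraries lie above all CtrV libraries for Tlr4, Cd14, Ly96, Tirap, Ticam1, Ticam2 and Myd88, below them for Irak4 and Irak1, and overlap them for Traf6.

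The 3 genes of the receptor complex were all higher in the EKO-labelled line. Tlr4, the signaling receptor itself, lies on chromosome 4 at positions 66827584 to 66930284 of GRCm38. It stood at 37.2, 32.2 and 31.2 CPM in unpulsed and at 42.1, 31.6 and 31.5 CPM in OVA-pulsed CtrV cells. In EKO-labelled cells it stood at 74.1, 112 and 104 CPM without and at 81.5, 105 and 99.7 CPM with OVA. Every EKO-labelled library was above every CtrV library, and replicate 1 was the lowest of both EKO-labelled groups. Tlr4 was 2.70-fold higher with OVA (log2 fold change 1.43 ± 0.17 SE, n = 3 per group, edgeR quasi-likelihood test, adjusted p = 5.9e-05) and 2.88-fold higher without (1.52 ± 0.17, adjusted p = 4.3e-05).

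Cd14, the co-receptor that takes LPS from the LPS-binding protein, lies on chromosome 18 at 36725067 to 36726798. Its CPM was 53.4, 47.8 and 59.1 in unpulsed and 62.5, 46.1 and 47.1 in OVA-pulsed CtrV cells. It was 138, 218 and 222 in unpulsed and 154, 224 and 223 in OVA-pulsed EKO-labelled cells. The lowest EKO-labelled library was therefore well above the highest CtrV library, and here too replicate 1 was the low one of each EKO-labelled group. The difference was 3.78-fold with OVA (log2 1.92 ± 0.20, edgeR adjusted p = 2.1e-05) and 3.57-fold without (1.83 ± 0.20, adjusted p = 3.1e-05).

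Ly96, which encodes the LPS-binding subunit MD-2 (chromosome 1, 16688051 to 16709611), was low, with 61 to 89 counts in a CtrV library and 135 to 230 in an EKO-labelled one. It stood at 2.15, 2.40 and 2.34 CPM in unpulsed and 2.24, 2.69 and 2.49 CPM in OVA-pulsed CtrV cells. The EKO-labelled values were 4.95, 6.07 and 6.12 CPM without and 6.02, 4.92 and 5.72 CPM with OVA. The groups did not overlap, and unlike for Tlr4 and Cd14 replicate 1 was not the lowest in both EKO-labelled groups. Ly96 was 2.26-fold higher with OVA (log2 1.17 ± 0.12, edgeR adjusted p = 2.4e-05) and 2.49-fold higher without (1.32 ± 0.13, adjusted p = 1.6e-05).

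Leaving out both EKO-labelled libraries of replicate 1 raised the log2 difference of Tlr4 to 1.67 with OVA and 1.80 without, and that of Cd14 to 2.19 and 2.12. Ly96 went from 1.17 to 1.05 with OVA and from 1.32 to 1.35 without when both were left out. Siglece was lowest in the same 2 libraries, at 166 and 174 CPM against 202 to 235 CPM in the other 4 EKO-labelled libraries. Whether these go together was not tested.

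The RefSeq promoter table for GRCm38.p6 held 6 of the 10 genes, and it had no entry for Tlr4, Cd14, Ly96 or Ticam2. A set of 4 short motifs was searched on both strands in the 250 bases before each start site: a pair of IRF cores (GAAA, any 2 bases, GAAA, in 3.04% of 27025 mouse promoter windows of this length), a kappaB motif (GGGA, any 4 bases, CC, in 17.3%), an AP-1 motif (TGANTCA, in 6.87%) and a PU.1 core (GAGGAA, in 23.1%). The promoters of Myd88, Ticam1 and Traf6 are shown without their annotated exon bases, because they belong to the adaptor of each signaling branch and to the ligase downstream of MyD88, and because they are those whose shown bases hold a match. Capitals mark the matches, and each sequence reads toward the gene, from the base farthest from the start site.
Myd88: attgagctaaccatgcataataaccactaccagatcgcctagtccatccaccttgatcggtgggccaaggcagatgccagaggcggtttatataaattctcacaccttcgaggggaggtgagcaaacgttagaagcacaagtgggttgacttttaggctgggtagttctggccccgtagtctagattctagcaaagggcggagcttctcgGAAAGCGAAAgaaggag
Ticam1: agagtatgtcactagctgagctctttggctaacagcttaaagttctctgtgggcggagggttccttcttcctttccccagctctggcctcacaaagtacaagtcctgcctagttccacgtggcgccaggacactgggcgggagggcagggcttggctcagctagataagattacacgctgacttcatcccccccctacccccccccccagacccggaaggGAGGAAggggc
Traf6: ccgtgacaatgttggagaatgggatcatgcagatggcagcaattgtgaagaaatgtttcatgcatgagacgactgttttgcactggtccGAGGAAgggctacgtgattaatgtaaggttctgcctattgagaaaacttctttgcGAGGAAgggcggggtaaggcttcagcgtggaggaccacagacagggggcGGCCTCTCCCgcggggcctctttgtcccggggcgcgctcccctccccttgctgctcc
The Myd88 run covers chr9:119340042-119340268 on the minus strand, and its IRF pair stands at positions -40 to -31 from the start site. The RefSeq start site used for Myd88, 119340018, lies inside the GENCODE span of the gene, 119335934 to 119341411. This run is therefore upstream of that start site but within the GENCODE span. The Ticam1 run covers chr17:56276787-56277017 on the minus strand, with a PU.1 core at -30 to -25. The Traf6 run covers chr2:101678170-101678419 on the plus strand, with PU.1 cores at -161 to -156 and -106 to -101 and a kappaB motif of the opposite strand at -57 to -48. Irak1 had a kappaB match at -18 to -9, Tirap and Irak4 had no match in this window, and no AP-1 motif was found in the 6 promoters. No match overlapped another. A match describes letters and is no evidence of binding.

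Of the MyD88 branch, the sorting adaptor rose clearly, MyD88 itself rose little, and both kinases fell. Tirap (chromosome 9, 35184551 to 35200291) stood at 29.8, 28.7 and 20.6 CPM in unpulsed and 31.7, 30.1 and 25.0 CPM in OVA-pulsed CtrV cells. In EKO-labelled cells it stood at 43.3, 52.8 and 41.1 CPM without and 43.6, 50.8 and 41.4 CPM with OVA. The groups did not overlap, and replicate 3 was the lowest of all 4 groups. The difference was 1.57-fold with OVA (log2 0.65 ± 0.09, edgeR adjusted p = 0.00014) and 1.75-fold without (0.80 ± 0.09, adjusted p = 3.6e-05).

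Myd88, the adaptor shared by most Toll-like receptors and the IL-1 receptor family (chromosome 9, 119335934 to 119341411), had the highest CPM per kilobase of exon among the intracellular members. Its values were 106, 98.8 and 98.7 CPM in unpulsed and 111, 102 and 104 CPM in OVA-pulsed CtrV cells, and 115, 130.1 and 127 CPM and 124, 119 and 113 CPM in the corresponding EKO-labelled groups. The groups were separated by a narrow gap. The rise was 1.23-fold without OVA (log2 0.29 ± 0.06, edgeR adjusted p = 0.0031) and 1.12-fold with OVA (0.17 ± 0.06, adjusted p = 0.047). The OVA-pulsed call stood at the threshold: without the replicate block the adjusted p was 0.054, with DESeq2 0.067, and without filtering 0.12. It was also lost when any one library was left out other than replicates 1 and 2 of the unpulsed EKO-labelled cells, with adjusted p up to 0.23 without replicate 2 of the OVA-pulsed CtrV cells.

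Irak4, the first kinase to join MyD88 (chromosome 15, 94543643 to 94581815), was lower in the EKO-labelled line. It stood at 31.3, 30.3 and 28.1 CPM in unpulsed and 31.5, 30.1 and 29.9 CPM in OVA-pulsed CtrV cells, against 23.0, 24.3 and 22.3 CPM and 23.9, 21.5 and 20.5 CPM in EKO-labelled cells. The 4 groups were tight, with the 2 lines apart in each condition. Irak4 fell by 0.48 ± 0.06 on the log2 scale with OVA (edgeR adjusted p = 5.1e-05) and by 0.36 ± 0.06 without (adjusted p = 0.00037), that is 1.39-fold and 1.29-fold lower.

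Irak1, the kinase that IRAK4 phosphorylates (chromosome X, 74013914 to 74023918), was also lower, by a smaller step. Its CPM was 73.1, 72.1 and 68.6 in unpulsed and 73.0, 74.1 and 79.4 in OVA-pulsed CtrV cells. In EKO-labelled cells it was 65.5, 58.2 and 64.7 without and 67.2, 64.4 and 65.9 with OVA. Irak1 fell by 0.20 ± 0.06 on the log2 scale with OVA (edgeR adjusted p = 0.013) and by 0.18 ± 0.06 without (adjusted p = 0.019). The call with OVA was lost without replicate 3 of the CtrV cells (adjusted p = 0.076) or of the EKO-labelled cells (0.055). The call without OVA was lost without replicate 1 or 2 of the CtrV cells (0.062 and 0.066) or replicate 2 of the EKO-labelled cells (0.10).

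Traf6, the ubiquitin ligase on which IRAK signals converge (chromosome 2, 101678429 to 101701669), was called with OVA only. It stood at 33.8, 36.1 and 36.5 CPM in unpulsed and 39.8, 33.5 and 36.0 CPM in OVA-pulsed CtrV cells, and at 46.4, 34.3 and 36.5 CPM and 51.3, 36.3 and 49.8 CPM in EKO-labelled cells. Replicate 2 of each EKO-labelled group lay within the CtrV range, and replicate 3 of the unpulsed group lay at its upper end. Traf6 was 1.25-fold higher with OVA (log2 0.32 ± 0.10, edgeR adjusted p = 0.026), and without OVA its difference was 0.12 ± 0.11 with a 95% interval of -0.11 to 0.36 (adjusted p = 0.36). The call with OVA was lost without the replicate block (adjusted p = 0.077), with both EKO-labelled libraries of replicate 1 left out (0.084), and without any one of the 6 OVA-pulsed libraries except replicate 2 of the EKO-labelled cells (0.063 to 0.13).

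The 2 adaptors of the TRIF branch were both higher in the EKO-labelled line. Ticam2, the bridging adaptor TRAM (chromosome 18, 46557291 to 46574533), showed the largest fold difference of the 10 genes. It stood at 3.84, 3.69 and 2.37 CPM in unpulsed and 5.59, 3.78 and 2.79 CPM in OVA-pulsed CtrV cells. The EKO-labelled cells had 20.8, 19.8 and 13.5 CPM without and 26.8, 15.6 and 15.9 CPM with OVA. These values rest on 69 to 207 counts per CtrV library and 440 to 1024 per EKO-labelled library, and the groups were far apart. Ticam2 was 4.81-fold higher with OVA (log2 2.26 ± 0.14, edgeR adjusted p = 6e-07) and 5.48-fold higher without (2.45 ± 0.15, adjusted p = 5.5e-07).

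Ticam1, which encodes TRIF (chromosome 17, 56269319 to 56276786), stood at 46.2, 43.4 and 33.2 CPM in unpulsed and 50.6, 41.4 and 33.5 CPM in OVA-pulsed CtrV cells. The EKO-labelled values were 68.1, 83.3 and 64.9 CPM without and 76.4, 77.8 and 68.0 CPM with OVA. The groups did not overlap, and replicate 3 was the lowest of all 4. Ticam1 was 1.78-fold higher with OVA (log2 0.83 ± 0.10, edgeR adjusted p = 6e-05) and 1.77-fold higher without (0.83 ± 0.10, adjusted p = 7.3e-05).

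OVA pulsing was not seen to move any of the 10 genes. In CtrV cells their log2 differences between pulsed and unpulsed cells ran from -0.03 (Cd14) to 0.29 (Ticam2), with a median of 0.06, and in EKO-labelled cells from -0.08 (Irak4) to 0.23 (Traf6), with a median of 0.01. None of the 10 reached an unadjusted p under 0.05, which 1.64% of all genes did in CtrV and 2.80% in EKO-labelled cells. The smallest unadjusted p was 0.051, for Traf6 in EKO-labelled cells, where the 95% interval ran from -0.00095 to 0.46. Over all 14079 genes, edgeR called 0 in either line, with 231 genes in CtrV and 394 in EKO-labelled cells at an unadjusted p under 0.05, and DESeq2 also called 0. The widest intervals were those of Cd14, at -0.46 to 0.41 in CtrV and -0.36 to 0.47 in EKO-labelled cells, and the highest bound was that of Ticam2 in CtrV cells (-0.09 to 0.67), so changes of that size could have been missed. The difference between the lines was also tested for dependence on pulsing. The dependence ran from -0.19 (Ticam2) to 0.20 (Traf6) on the log2 scale with no unadjusted p under 0.05 among the 10 genes, and edgeR and DESeq2 called 0 of all genes (269 genes, or 1.91%, at an unadjusted p under 0.05 with edgeR). The call of Traf6 with OVA and its absence without are thus not shown to differ (0.20 ± 0.15, unadjusted p = 0.21).

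**Figure D2:**
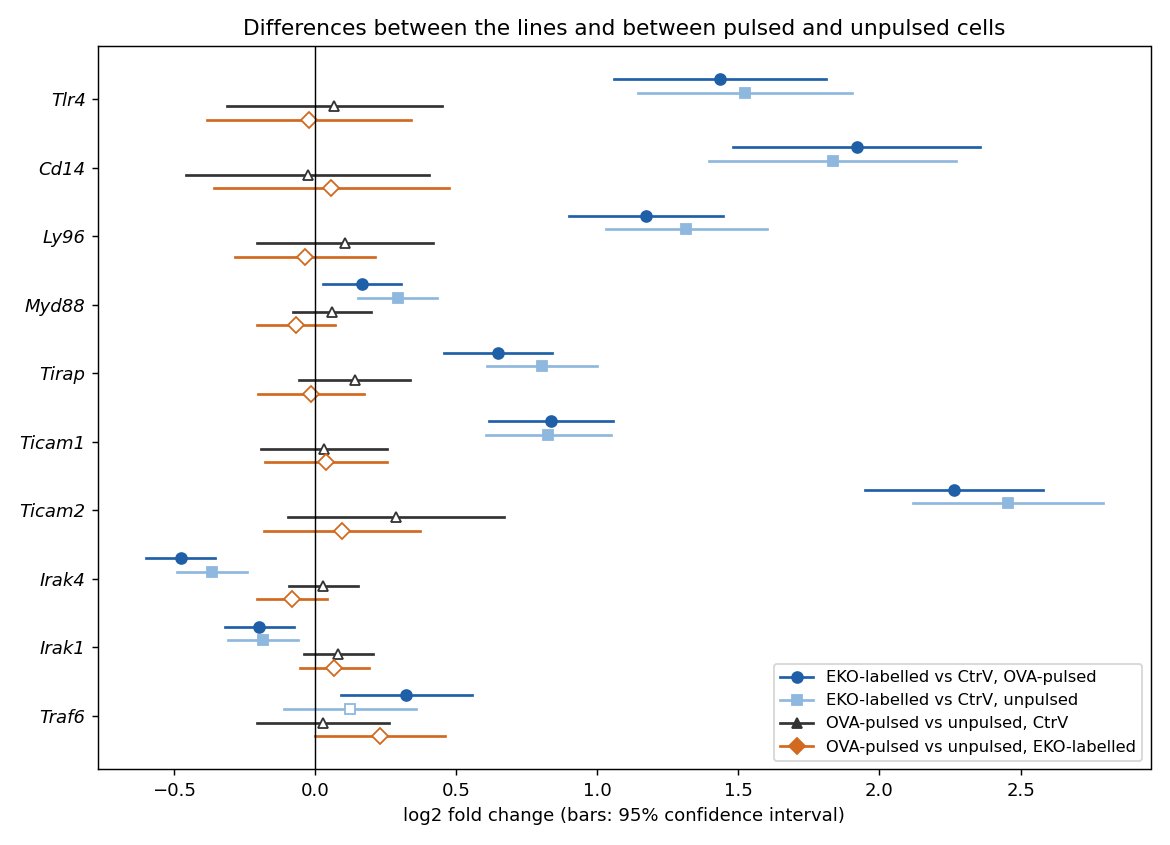
Log2 fold change (horizontal axis) with its 95% confidence interval for each gene in 4 comparisons, where a filled symbol marks an edgeR adjusted p under 0.05 and an open symbol one that did not pass. The differences between the lines run from -0.48 (Irak4, OVA-pulsed) to 2.45 (Ticam2, unpulsed), and every interval for OVA pulsing includes 0.

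Levels can be compared between genes only per length, and are given as CPM per kilobase of the union of a gene's exons in the GENCODE annotation. In OVA-pulsed CtrV cells Myd88 was the highest at 41.0 ± 1.78 (SD, n = 3), followed by Cd14 at 30.0 ± 5.32, Irak1 at 16.0 ± 0.734 and Ticam1 at 14.0 ± 2.86. Tlr4 at 6.31 ± 1.10, Irak4 at 6.07 ± 0.170 and Tirap at 5.86 ± 0.710 could not be put in order, since each overlapped the next, and Traf6 at 4.62 ± 0.404 came below Tirap. Ly96 at 2.42 ± 0.219 and Ticam2 at 0.700 ± 0.246 were the lowest. Irak1 also overlapped Ticam1. In OVA-pulsed EKO-labelled cells the order was led by Cd14 at 116 ± 23.0, with Myd88 at 46.0 ± 1.98, Ticam1 at 24.8 ± 1.78 and Tlr4 at 17.2 ± 2.22 after it, each apart from the next. Irak1 at 14.0 ± 0.301 and Tirap at 9.18 ± 0.991 followed, Traf6 at 5.81 ± 1.05 overlapped Ly96 at 5.44 ± 0.554, and Irak4 at 4.37 ± 0.345 overlapped Ticam2 at 3.36 ± 1.10. In unpulsed cells the 4 highest genes of each line stood in the same order as with OVA, although Tlr4 then overlapped Irak1 in the EKO-labelled cells, and Ticam2 was again the lowest. The places depend on the length used. Per kilobase of coding sequence Ticam2 was not the lowest in EKO-labelled cells, where it stood at 25.9 without and 27.9 with OVA against 11.9 and 11.6 for Ly96, then the lowest. In CtrV cells Ticam2 and Ly96 overlapped on that scale, at 4.74 and 4.78 without and 5.82 and 5.15 with OVA. Per coding kilobase the mean of Tirap also moved up to the third place in each group. In CtrV cells Tirap overlapped Irak1 in both conditions, and with OVA it overlapped Cd14 too. Cd14 overlapped Myd88 in unpulsed EKO-labelled cells.

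**Figure D3:**
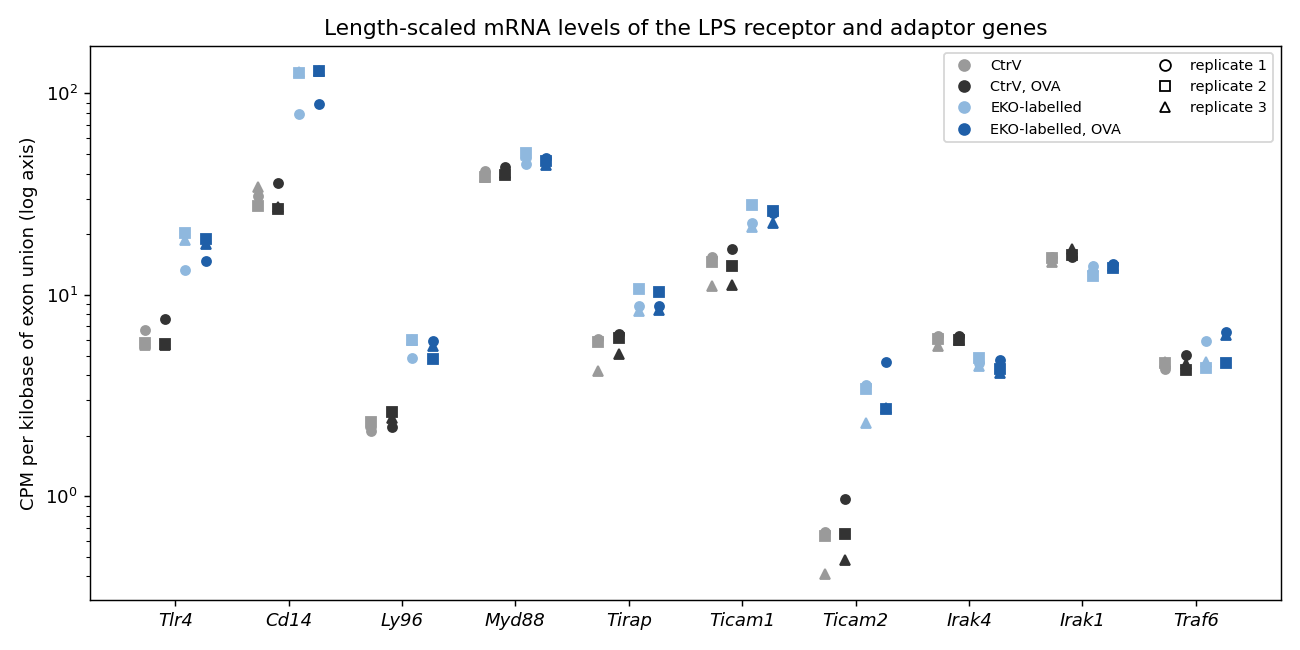
CPM per kilobase of exon union (log axis) for the 10 genes in each library, with colours for the 4 groups and point shapes for the replicate numbers. Cd14 passes Myd88 as the highest gene in the EKO-labelled groups, and Ticam2 has the lowest mean on this scale in every group.

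Within the receptor complex, the level of Cd14 mRNA per kilobase of exon union was 4.61 to 6.07 times that of Tlr4 in CtrV libraries and 5.96 to 7.16 times in EKO-labelled libraries, with a small overlap. Tlr4 was 2.16 to 3.45 times Ly96 in CtrV and 2.49 to 3.92 times in EKO-labelled libraries, and these ranges overlapped widely. In the TRIF branch, Ticam1 was 17.5 to 27.1 times Ticam2 in CtrV and 5.52 to 9.64 times in EKO-labelled libraries, with no overlap. Myd88 was 2.54 to 3.61 times Ticam1 in CtrV and 1.77 to 2.27 times in EKO-labelled libraries. The size of these ratios depends on the length used. Per kilobase of coding sequence Ticam1 was 2.87 to 4.44 times Ticam2 in CtrV and 0.904 to 1.58 times in EKO-labelled libraries, and Myd88 was 5.41 to 7.68 times Ticam1 in CtrV and 3.77 to 4.83 times in EKO-labelled libraries. On that scale Cd14 was 3.28 to 4.32 times Tlr4 in CtrV and 4.24 to 5.09 times in EKO-labelled libraries, and the ranges for Tlr4 over Ly96 overlapped again. These ratios restate the fold changes as proportions and were not tested.

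The genes also varied within groups, and not alike. The largest deviations from a group mean were those of Ticam2, at 0.52 on the log2 scale in replicate 1 of the OVA-pulsed CtrV cells and 0.51 in replicate 1 of the OVA-pulsed EKO-labelled cells. Replicate 3 lay below the mean of its group for Tirap, Ticam1 and Ticam2 in all 4 groups, by 0.12 to 0.34, by 0.12 to 0.30 and by 0.24 to 0.47. Tlr4 lay above the group mean in replicate 1 of both CtrV groups (0.15 and 0.28) and below it in replicate 1 of both EKO-labelled groups (-0.36 and -0.22). The pair-by-pair difference between the lines was accordingly smaller for Tlr4 in replicate 1, at 0.95 with OVA against 1.73 and 1.66 in replicates 2 and 3. Irak4, Irak1 and Myd88 varied little, with coefficients of variation of 2.16 to 7.89% within a group.

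**Figure D4:**
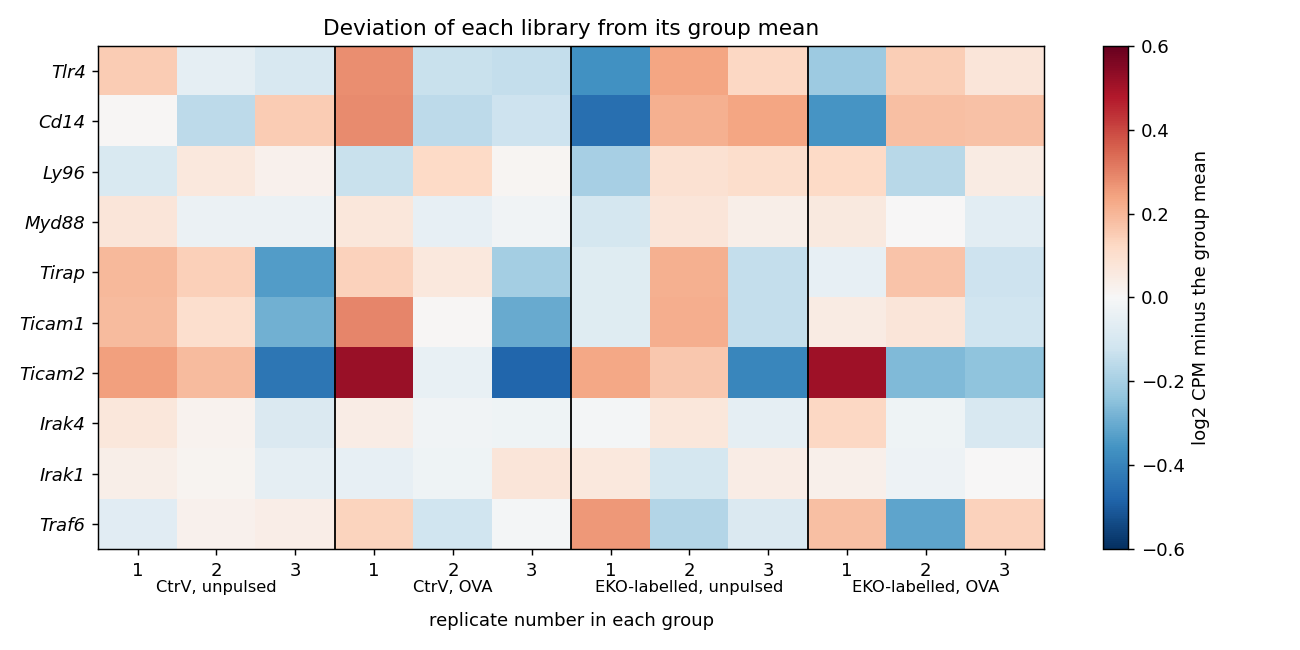
Deviation of log2 CPM from the mean of its group (colour scale) for the 10 genes (rows) in the 12 libraries (columns, by group and replicate number). Replicate 3 is below the mean for Tirap, Ticam1 and Ticam2 in each group, and replicate 1 is below the mean for Tlr4 and Cd14 in both EKO-labelled groups.

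Several members share exon bases with a neighbour, and whether the counting used strand is not stated. Ticam2 shares 14.5% of its exon bases with Tmed7 on the same strand, and Tmed7, a cargo receptor of the secretory pathway, differed by 0.01 ± 0.07 with OVA and -0.05 ± 0.07 without (edgeR adjusted p = 0.91 and 0.57), at 157 to 189 CPM. Myd88 shares 11.3% with Acaa1a on the opposite strand, and Acaa1a fell by 0.16 with OVA and by 0.19 without (adjusted p = 0.037 and 0.018), opposite to Myd88. Irak4 shares 7.87% with Twf1 on the opposite strand, and Twf1 differed by 0.03 and -0.04 (adjusted p = 0.73 and 0.61). Tirap shares 0.791% with Srpr, which rose by 0.31 and 0.37 (adjusted p = 0.0014 and 0.00044), and 9.05% with the antisense gene Gm39318, which had 0 to 4 counts per library. Irak1 contains Mir718, at 0 counts in all libraries, and Mir5132, at 7 to 16 counts.

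By the root mean square difference of log2 CPM centred over the 12 libraries, among 12392 genes, the genes most like Tlr4 were Pdgfb (0.08), Ifih1 (0.11) and Phlda1 (0.11). Those most like Cd14 were Atf3 (0.11), Usp18 (0.14) and Cd72 (0.15), and those most like Ly96 were Smpdl3b (0.09), Kalrn (0.10) and 2310043P16Rik (0.11). Got2, Ctso and Il13ra1 were the most like Myd88 (0.04 to 0.05). The measure takes in the difference between the lines, so a like gene differs by a similar amount by choice: with OVA, Pdgfb differed by 1.45, Atf3 by 1.72, Smpdl3b by 1.18 and Got2 by 0.20.

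The genes around the receptor were read from lists of pathway members, with the counts for OVA-pulsed cells set against the 25.1% higher and 21.9% lower of all genes. Of 10 genes for LPS delivery, receptor folding and TLR4 partners, 9 were tested, 2 rose and 3 fell, with a median of 0.06. Ly86, which encodes MD-1, the partner of the TLR4-like receptor CD180, rose from 0.735 to 12.5 CPM (log2 4.09 ± 0.17, edgeR adjusted p = 4.5e-08), while Cd180 itself differed by 0.06 ± 0.12 (adjusted p = 0.71). Cd36, a scavenger receptor, rose from 0.327 to 1.72 CPM (2.38 ± 0.41, adjusted p = 0.00078). The CtrV means of Ly86 and Cd36 lay below the filter's log2 CPM of 0. Both thus passed the filter through the EKO-labelled libraries, and their tests are not independent of it. Hsp90b1, the chaperone gp96 that folds TLR4, fell by 0.48 ± 0.07 (adjusted p = 0.00018), Itgb2, the beta chain of CD11b/CD18, fell by 0.27 ± 0.05 (adjusted p = 0.0012), and Cnpy4 fell by 0.25. Cnpy3, another chaperone of Toll-like receptors, differed by 0.06 ± 0.05 (adjusted p = 0.33).

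Downstream in the MyD88 branch, 15 of 16 genes were tested, 6 rose and 1 fell, with a median of 0.04. Peli1, an E3 ligase of the IRAK complex, rose by 1.52 ± 0.10 (edgeR adjusted p = 5.8e-07) and Birc3 (cIAP2) by 0.90 ± 0.08 (6.9e-06), and Peli2, of the same family as Peli1, fell by 0.21 ± 0.05 (0.0043). Irak2, of the same family as Irak4 and Irak1, rose by 0.57 ± 0.07 with OVA (edgeR adjusted p = 0.00011) and by 0.60 ± 0.07 without (8.3e-05). The kinase gene Map3k8 rose by 0.72 ± 0.09 with OVA (7.5e-05). Among the genes that did not pass, Map3k7 (TAK1) differed by -0.11, Chuk by 0.04, Ikbkb by 0.17 and Ikbkg by 0.03. Downstream of TRIF, 9 of 10 genes were tested, 5 rose and none fell, with a median of 0.20 (edgeR, 0 lower calls with OVA, and Tradd alone lower without OVA, by 0.31). Ikbke, the inducible IRF3 kinase, rose from 3.16 to 36.5 CPM (3.51 ± 0.24, adjusted p = 9.7e-07), its adaptor Tank rose by 0.95 ± 0.05 (1.5e-07), and Tbk1 rose by 0.43 ± 0.05 (5.5e-05), while Irf3 differed by -0.04 ± 0.06 (0.61).

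Inhibitors of TLR4 signaling split, with 5 of 11 tested genes higher and 3 lower and a median of 0.03. Irak3 (IRAK-M), a pseudokinase that blocks IRAK release, rose from 2.66 to 12.1 CPM (2.18 ± 0.16, edgeR adjusted p = 1.9e-06) and Tnfaip3 (A20) rose by 1.21 ± 0.11 (6.3e-06). Il1rl1 (ST2), which sequesters MyD88 and TIRAP, fell by 0.84 ± 0.17 (0.0024), and Dok3 fell by 0.26 ± 0.06 (0.0043). All 4 genes of cytosolic LPS sensing passed, 3 higher and 1 lower: Casp4 (caspase-11) rose from 0.258 to 2.95 CPM (3.44 ± 0.41, 5.8e-05) and Gbp5 by 1.45 ± 0.18 (9.1e-05), and Gsdmd, the pore former that caspase-11 cleaves, fell by 1.38 ± 0.08 (3.3e-07). With a CtrV mean below the filter's log2 CPM of 0, Casp4 passed the filter through the EKO-labelled libraries.

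The 2 short lists of textbook LPS targets were higher throughout. They were chosen with earlier results of these data known, so their shared direction is a description and no independent evidence. All 8 NF-kB targets rose with a median of 3.18, among them Ptgs2 (5.13 ± 0.25, edgeR adjusted p = 1.1e-07) and Il12b (4.55 ± 0.25, 2.2e-07), and all 8 IRF3 and interferon targets rose with a median of 2.71, among them Ifnb1 (4.29 ± 0.55, 1e-04) and Oasl1 (4.02 ± 0.31, 2.7e-06). Tnf had the smallest rise of the 16, at 0.79 ± 0.21 (0.011). Without OVA, all 8 genes of each list also rose, with medians of 2.29 and 2.85. In unpulsed cells the counts of the other lists were 3 higher and 2 lower of 9 tested for delivery and partners, 6 and 1 of 15 for the MyD88 branch, 5 and 1 of 9 for the TRIF branch, 5 and 3 of 11 for the inhibitors and 3 and 1 of 4 for cytosolic sensing, beside 24.5% higher and 21.9% lower of all genes tested.

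**Figure D5:**
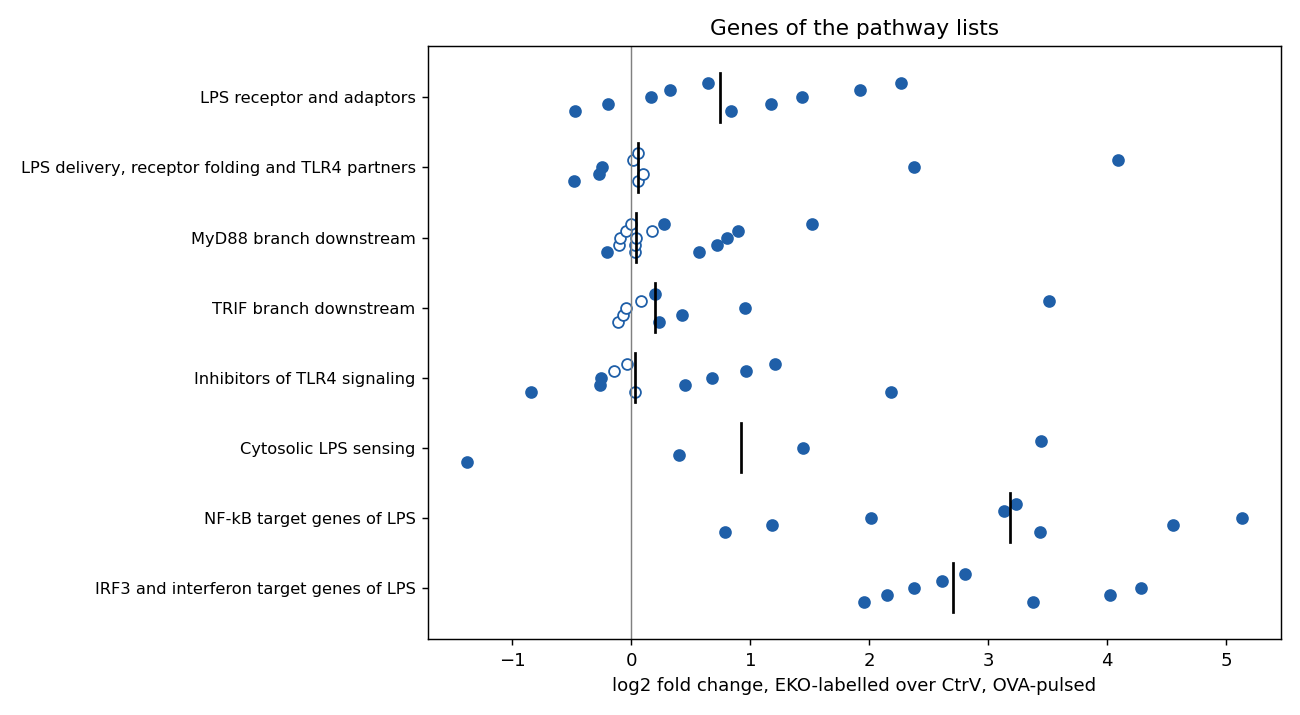
Log2 fold change of each tested gene in EKO-labelled over CtrV cells, both OVA-pulsed (horizontal axis), by list, with filled points for an edgeR adjusted p under 0.05, open points for the rest and a vertical bar at the median of the list. The medians lie at 0.74 for the receptor and adaptor genes, 0.92 for cytosolic sensing, 3.18 for NF-kB targets and 2.71 for IRF3 and interferon targets, and between 0.03 and 0.20 for the partners, both branches and the inhibitors.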

How the data were processed

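RNA of LPS-stimulated Sp37A3 cells was sequenced as 12 stranded mRNA libraries (4 groups of 3). The authors aligned the reads to mm10 with STAR, kept 1 location for reads that fitted several, sorted with SAMtools, and deposited raw counts of read ends on the exon union of each gene from featureCounts with an Ensembl gene model. Reads of near-identical copies may therefore be counted on only 1 of them, and whether strand was used is not stated. All columns of the table were used.

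Groups and replicate numbers came from the labels, which do not say whether libraries are separate cultures, so p-values measure the spread between these libraries. The study describes a single CtrV line and a single EKO line, so the p-values do not measure the spread between independently made lines. The filter kept genes that exceeded a log2 CPM of 0 in 2 or more libraries (14079 of 28881 with a count), and 14056 of them have a symbol in the GENCODE annotation of GRCm38, which also gave positions and lengths and is not the annotation the authors counted with. A gene low in CtrV cells could pass the filter through the EKO-labelled libraries alone. Tests used edgeR 4.0.16 (R 4.3.3) with TMM normalization and the quasi-likelihood test, group and replicate number in the model over all 12 libraries as in the study's methods, with p-values adjusted by Benjamini-Hochberg across every gene tested and called at 0.05. The common dispersion was 0.00590. Deviations of same-numbered libraries correlated at 0.448, 0.292 and 0.289 between the OVA-pulsed lines, at 0.0602, -0.0118 and 0.263 between the unpulsed lines, at 0.0775, 0.179 and 0.373 between pulsed and unpulsed CtrV cells, and at 0.706, 0.351 and 0.411 between pulsed and unpulsed EKO-labelled cells. No source says that a shared number marks a shared day or batch. Each correlation was over 0.1 between the OVA-pulsed lines and within the EKO-labelled cells, and not in the other 2 comparisons. With 3 libraries per group, these values cannot decide whether the numbers mark pairs. On data simulated for the OVA-pulsed comparison (13850 genes), 92% of 1.5-fold and 100% of 2-fold changes were recovered, and 0.0586% of unchanged genes were called. The simulation changed 200 genes, gave every gene the common dispersion and held no replicate effect or deviating library. It checks the code, and its rates need not hold for these libraries, where far more genes were called.

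The 10 genes, the pathway and marker lists and the alternatives were chosen with earlier results of these data known, and no list was tested as a set. Named were the 10 genes, Siglece, genes that overlap a member, the 3 genes most like Tlr4, Cd14, Ly96 and Myd88, and, of each list, up to 2 called genes that rose most and up to 2 that fell most with OVA. Cd180, Cnpy3, Cnpy4, Irak2, Map3k8, Map3k7, Chuk, Ikbkb, Ikbkg, Tbk1, Tradd, Irf3, Tnf and the markers were named after their values were seen. CPM uses TMM-scaled totals over tested genes. Intervals and the limit of 3 counts cover the counts as given. Alternatives were other normalizations, DESeq2 1.42.0, limma 3.58.1 voom, edgeR's newer quasi-likelihood, other filters and thresholds, no replicate block, only the 6 compared libraries, and leaving out each library.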

Additional observations from a re-analysis of the deposited data

How the results depend on the processing

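The differences of Tlr4, Cd14, Ly96, Tirap, Ticam1, Ticam2 and Irak4 between the lines kept their direction and stayed past the threshold in both conditions under the other normalizations, tests, filters and sets of libraries listed, including each library left out. Requiring a log2 difference of at least 1 besides the adjusted p left 4 of 10 genes with OVA (9.01% of all genes) and 4 without (8.81%). Without the replicate block, 8 of the 10 passed with OVA (38.4% of all genes, against 47.0% with the block) and 9 without OVA (37.9% against 46.4%), where Myd88 (adjusted p = 0.054) and Traf6 (0.077) were lost with OVA, and the block changed no other call among the 10 genes. Leaving out 1 library gave 7 to 10 of 10 genes with OVA (36.8 to 49.8% of all genes) and 8 or 9 without (38.2 to 46.0%), all losses being among Myd88, Traf6 and Irak1. Myd88 with OVA also missed the threshold with RLE (0.055) and upper-quartile normalization (0.10), DESeq2 (0.067) and no filter on low counts (0.12), and Irak1 without OVA with only the 6 compared libraries (0.088). Leaving out both EKO-labelled libraries of replicate 1, chosen after seeing the data, left 9 genes in each condition (42.7% of all genes with OVA and 44.3% without). The 10 genes gave 0 calls for OVA pulsing and its interaction throughout. Levels per kilobase in OVA-pulsed CtrV cells were the same or higher with coding or longest transcript length in place of the exon union, in 17 cases by more than the SD. Ly96 and Ticam2 rest on the fewest counts, 61 and 69 in their lowest libraries. The causes of the lost calls were not tested.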
